A study of Mus musculus with 11 samples.

Results

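A set of 9 genes of the type I interferon response, Ifit1, Ifit3, Oasl2, Ifitm3, Bst2, Isg15, Usp18, Irf7 and Stat2, were followed in the brain of mice whose forebrain neurons lack Dicer. They were taken as the entries of the count table whose Ensembl identifier maps to these symbols, and all 9 were found among 39017 genes. The rule uses no threshold on these data, but the genes were picked with earlier results of the series known. In the CA1, 4 of the 9 rose in the knockout (Ifit1, Ifit3, Oasl2 and Ifitm3), by 1.89-fold to 2.92-fold. Over all genes tested there 2.47% rose, and which of the 9 were called changed with the libraries used. In the neocortex none of the 9 passed the test, where 1.51% of all genes tested rose. None of the 9 passed a test of the difference between the tissues.

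Polyadenylated RNA of 2 tissues, neocortex and hippocampal CA1, was sequenced from mice aged 13 to 14 weeks. Knockout (KO) mice were Camk2a-Cre;Dicer flox/flox, and the labels call the other mice control without giving their genotype. For the neocortex there were 3 controls, from males D5129, D5134 and D5135, and 3 KO samples, from males D5130, D5132 and D5133. For the CA1 there were 3 controls, from the males D5134 and D5135 again and the female D5138, and 2 KO samples, from D5130 and D5133, so 4 of the 7 animals gave both tissues. The Camk2a promoter drives Cre in forebrain excitatory neurons, so glia, vessels and meninges lie outside its target cells; Dicer is the RNase that processes miRNA precursors. The labels do not give the strain.

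Type I interferons are secreted proteins that cells release on sensing foreign or misplaced nucleic acid. They bind a receptor made of Ifnar1 and Ifnar2, whose kinases Jak1 and Tyk2 phosphorylate Stat2. Stat2 acts with Irf9 in the complex ISGF3, which binds the interferon-stimulated response element (ISRE) in the promoters of the response genes. In the brain, microglia, astrocytes, endothelium, meningeal cells and neurons can all mount the response.

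The promoters of the response genes are shown because the ISRE is the sequence that links them. The core GAAANNGAAA was searched on both strands in RefSeq windows of 300 bases, from 250 before to 50 after a gene's start (GRCm38.p6). A window was found for 8 of the 9 genes, all but Usp18. Of these, 6 held the core (all but Irf7 and Oasl2), against 1079 of 27025 genes with a window (3.99%). The stretches upstream of the start in 5 of them are printed 5′ to 3′ on the gene's strand, with the matched letters in capitals, and in Ifit1, Ifit3 and Stat2 the core is read on the other strand.
Ifit1, chr19:34640760-34640838 (+): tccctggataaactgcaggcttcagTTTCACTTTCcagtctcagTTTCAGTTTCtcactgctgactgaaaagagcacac
Ifit3, chr19:34583348-34583441 (+): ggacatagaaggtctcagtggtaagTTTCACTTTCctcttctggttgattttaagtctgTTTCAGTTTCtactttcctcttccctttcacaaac
Stat2, chr10:128270251-128270310 (+): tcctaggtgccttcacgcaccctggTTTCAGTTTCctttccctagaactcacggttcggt
Bst2, chr8:71537562-71537627 (-): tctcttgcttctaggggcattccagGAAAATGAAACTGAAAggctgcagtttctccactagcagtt
Isg15, chr4:156200850-156200921 (-): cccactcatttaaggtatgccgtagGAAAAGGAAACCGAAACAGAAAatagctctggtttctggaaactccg
Ifit1 and Ifit3 each held 2 separate cores. In Bst2 and Isg15 the cores ran into one another as repeats of GAAA, 2 in Bst2 and 3 in Isg15. Those of Ifitm3 lay just downstream of the start. The motif TTCNNNGAA, the letters of the gamma-activated site bound by STAT dimers, was found in 2 of the 8 windows (Ifitm3 and Bst2) and in 8.3% of the 32851 windows of all genes. A match describes letters and not binding. Oasl2, which held no core in this window, rose in the CA1, and Stat2, Bst2 and Isg15, which held it, did not pass in either tissue.

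Gene reads summed to between 43144097 and 58329441 in a neocortex library, and between 24806581 and 35684618 in a CA1 library. Per the labels, a stranded kit was used for the neocortex and an unstranded kit for the CA1, and the libraries of a tissue share a sequencing lane label. Neocortex marker genes summed to 523 to 561 CPM in the neocortex controls and 203 to 233 CPM in the CA1 controls, and CA1 marker genes to 142 to 169 and 386 to 447 CPM. CPM stands for counts relative to the library size (edgeR cpm, TMM-scaled). In the library of control D5134, Y-linked genes took 69.5 CPM (here without TMM) in the neocortex and 74.0 in the CA1, against 154 to 188 in the other males. In the CA1 library of KO D5133, labelled male, Xist stood at 21.1 CPM on the same scale, against 0.742 to 3.21 in the other male CA1 libraries and 602 in the female. Results without each of these libraries are given below. Within a group, each library carries the name of a different animal.

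Most of the 9 genes were expressed at a low level. Counted per kilobase of exon, Ifitm3 led in the control neocortex at 7.60 CPM, followed by Stat2 at 5.77, Bst2 at 1.86, Ifit3 at 1.60, Isg15 at 0.738, Ifit1 at 0.537, Irf7 at 0.198, Usp18 at 0.171 and Oasl2 at 0.0631. The control libraries overlapped between Bst2 and Ifit3, Isg15 and Ifit1, Irf7 and Usp18, and Usp18 and Oasl2. In the control CA1 the order was Ifitm3 at 5.98, Stat2 at 5.97, Bst2 at 1.81, Isg15 at 1.30, Ifit3 at 1.01, Ifit1 at 0.318, Usp18 at 0.178, Irf7 at 0.15 and Oasl2 at 0.0825, with overlaps between Ifitm3 and Stat2, Isg15 and Ifit3, and Usp18 and Irf7. Oasl2 rested on 10 to 67 reads per library and Usp18 on 8 to 49.

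**Figure D1:**
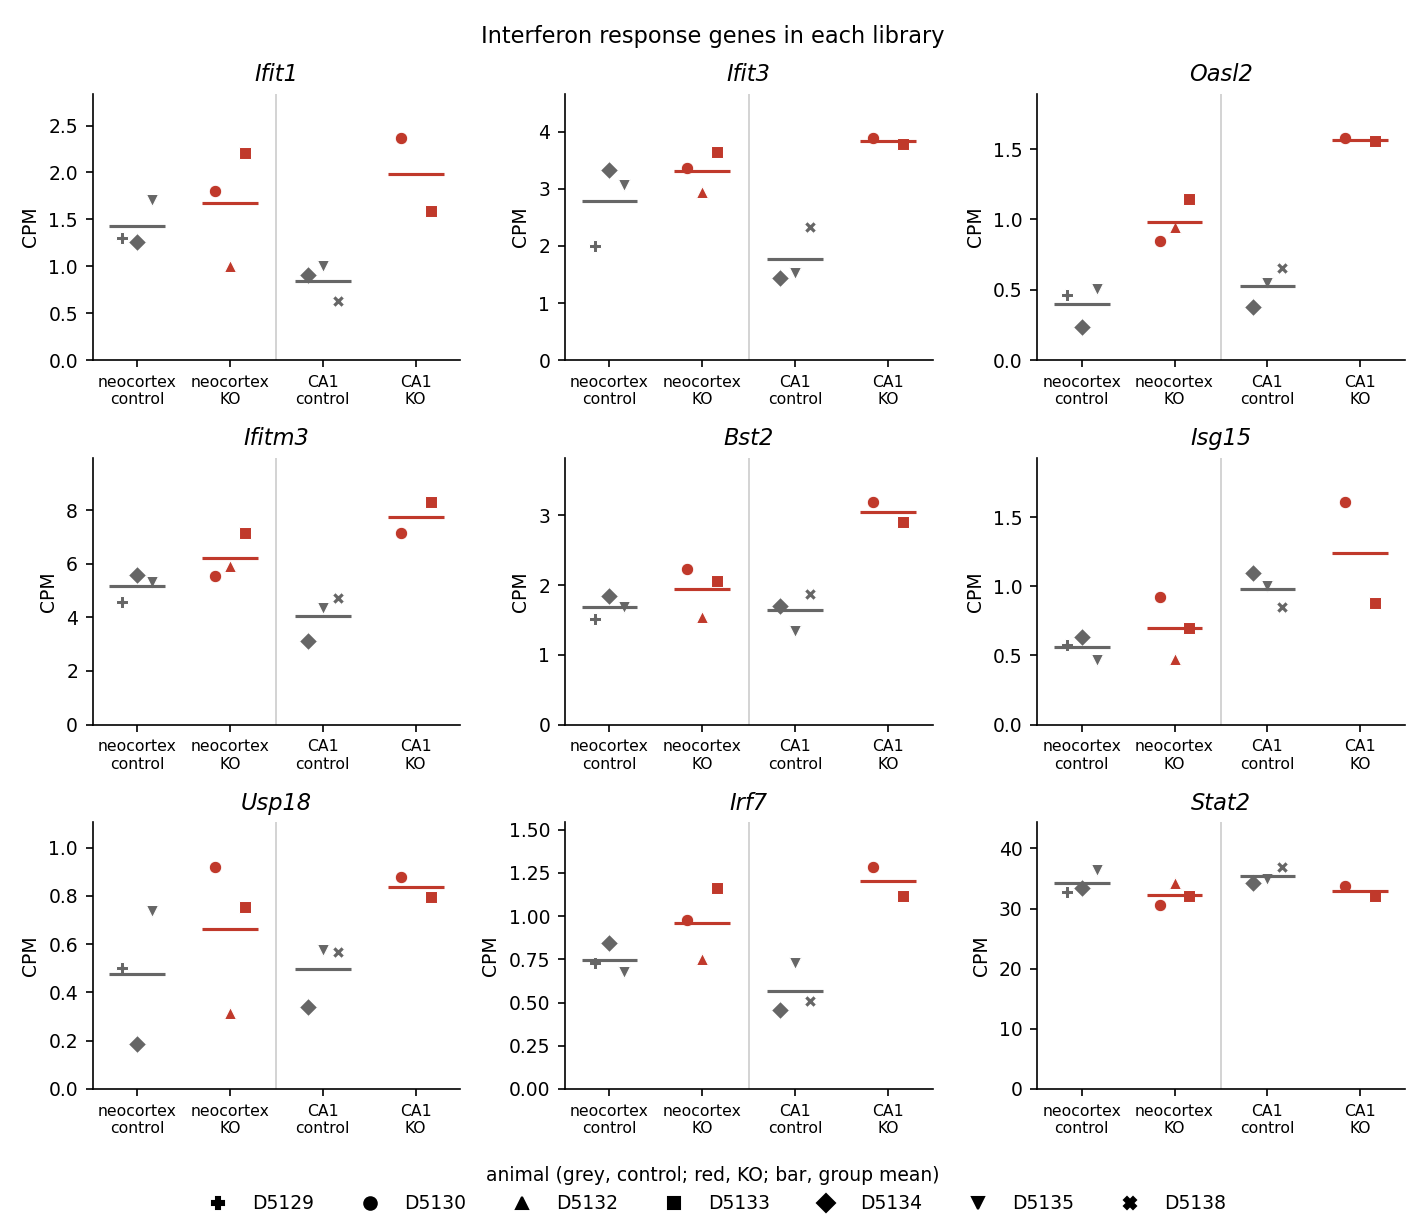
Level of each of the 9 genes in the 11 libraries, in CPM on linear axes that start at 0 and differ between genes. Each symbol is an animal, grey for control and red for KO, and each bar is a group mean; in the CA1, 7 genes have both KO libraries above all 3 controls.

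The IFIT proteins bind viral RNA that lacks the host's cap methylation and block its translation. Ifit1 (ENSMUSG00000034459, chromosome 19, 34640871 to 34650009, GRCm38) stood in the CA1 controls D5134, D5135 and D5138 at 0.908, 1.00 and 0.625 CPM, and in the KO libraries D5130 and D5133 at 2.37 and 1.59 CPM. Both KO animals were above every control, D5130 the further. Ifit1 rose by 1.25 log2 (SE 0.322, edgeR's quasi-likelihood test with Benjamini-Hochberg adjustment, adjusted p = 0.0468), from a mean of 0.845 ± 0.196 CPM (SD, n = 3) to 1.98 ± 0.547 CPM (SD, n = 2). In bulk tissue, more cells of a type and more RNA per cell cannot be told apart. In the neocortex the controls D5129, D5134 and D5135 were at 1.30, 1.26 and 1.71 CPM and the KO libraries D5130, D5132 and D5133 at 1.80, 1.01 and 2.21 CPM. There D5132 was the lowest library of all and D5133 the highest, so the groups overlapped (0.24 log2, SE 0.275, edgeR adjusted p = 0.724).

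Ifit3 (ENSMUSG00000074896, chromosome 19, 34583531 to 34588731) was at 1.44, 1.52 and 2.33 CPM in the CA1 controls. In the KO libraries it was at 3.89 and 3.79 CPM. The 2 KO values lay close together and well above the highest control, the female D5138. Ifit3 rose by 1.11 log2 (SE 0.241, edgeR adjusted p = 0.0203). In the neocortex it was at 1.99, 3.32 and 3.06 CPM in the controls, against 3.36, 2.94 and 3.64 CPM in the KO libraries, which overlapped (0.26 log2, SE 0.197, edgeR adjusted p = 0.555). Ifit3b, a close copy beside it, measured 0.29 log2 in the neocortex and 0.53 log2 in the CA1 and passed in neither, and reads of the 2 genes may have been split between them.

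Oasl2, an interferon-induced relative of the oligoadenylate synthetases (ENSMUSG00000029561, chromosome 5, 114896936 to 114911220), had the largest log2 fold change of the 9 in both tissues. It was at 0.379, 0.546 and 0.654 CPM in the CA1 controls, against 1.58 and 1.55 CPM in the KO libraries, and rose by 1.55 log2 (SE 0.353, edgeR adjusted p = 0.0261). In the neocortex it was at 0.466, 0.234 and 0.506 CPM in the controls, against 0.845, 0.947 and 1.15 CPM in the KO libraries. All 3 KO animals were above all 3 controls there, D5132 included, and Oasl2 was the only one of the 9 without overlap in the neocortex. Its neocortex difference of 1.27 log2 (SE 0.328) missed the threshold (edgeR adjusted p = 0.0617) and passed with DESeq2 (1.28 log2, adjusted p = 0.0434). Over all the settings run for the neocortex it stayed positive, from 0.94 to 2.65 log2, with adjusted p from 0.0232 to 0.616. The 2.65 came from scaling by ERCC reads, under which the median of all genes was itself 1.06 log2, and the next highest value was 2.06. The 2.06 came from a term for the share of ERCC reads, under which the KO effect rests on control D5134 alone.

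A pair of membrane proteins holds viruses at the cell surface or in endosomes. Ifitm3 (ENSMUSG00000025492, chromosome 7, 141009586 to 141010770), which blocks fusion of virus with the endosome, was at 3.10, 4.34 and 4.72 CPM in the CA1 controls, against 7.16 and 8.29 CPM in the KO libraries. It rose by 0.92 log2 (SE 0.183, edgeR adjusted p = 0.0132), and it was the only one of the 9 with its highest CA1 value in D5133. In the neocortex it was at 4.56, 5.57 and 5.31 CPM in the controls, against 5.52, 5.92 and 7.15 CPM in the KO libraries, with D5133 highest and D5130 within the controls (0.27 log2, SE 0.141, edgeR adjusted p = 0.346). Bst2 (tetherin, ENSMUSG00000046718, chromosome 8, 71534264 to 71537437), which ties budding virus to the membrane, was at 1.70, 1.33 and 1.88 CPM in the CA1 controls, against 3.19 and 2.91 CPM in the KO libraries. Although the groups did not overlap, its 0.90 log2 (SE 0.238) missed the threshold (edgeR adjusted p = 0.0521). In the neocortex Bst2 was at 1.51, 1.85 and 1.69 CPM in the controls, against 2.23, 1.54 and 2.05 CPM in the KO libraries, D5132 again among the controls (0.21 log2, SE 0.203, edgeR adjusted p = 0.650).

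Isg15 and Usp18 act as a pair, Isg15 being a ubiquitin-like modifier and Usp18 the protease that removes it and also damps signalling at Ifnar2. Isg15 (ENSMUSG00000035692, chromosome 4, 156199424 to 156200818) was at 1.10, 1.00 and 0.853 CPM in the CA1 controls, against 1.61 and 0.877 CPM in the KO libraries. Only D5130 was high, and D5133 lay within the controls, so the 2 KO animals differed by more than the 3 controls did (0.37 log2, SE 0.347, edgeR adjusted p = 0.667). In the neocortex Isg15 was at 0.578, 0.632 and 0.464 CPM in the controls, against 0.920, 0.474 and 0.701 CPM in the KO libraries, where D5132 was again within the controls (0.33 log2, SE 0.324, edgeR adjusted p = 0.665).

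Usp18 (ENSMUSG00000030107, chromosome 6, 121245906 to 121270916) was at 0.341, 0.576 and 0.569 CPM in the CA1 controls, against 0.877 and 0.797 CPM in the KO libraries. Both KO values were higher, but with 9 to 30 reads per library the 0.74 log2 (SE 0.412) did not pass (edgeR adjusted p = 0.393). In the neocortex it was at 0.503, 0.187 and 0.738 CPM in the controls, against 0.920, 0.316 and 0.753 CPM in the KO libraries, with D5132 within the controls and D5130 highest (0.47 log2, SE 0.483, edgeR adjusted p = 0.682). A non-coding gene on the other strand, Gm44148, overlaps the span of Usp18, introns included, by 15715 bases. How far their exons overlap was not measured. Unstranded CA1 reads from any shared exon bases could not be told apart.

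Irf7 and Stat2 are the 2 transcription factors of the set. Irf7 (ENSMUSG00000025498, chromosome 7, 141262706 to 141266421), itself interferon-induced and needed to amplify interferon production, was at 0.454, 0.728 and 0.512 CPM in the CA1 controls, against 1.29 and 1.12 CPM in the KO libraries. Both KO animals were above every control, yet the 1.08 log2 (SE 0.374) did not pass (edgeR adjusted p = 0.139). In the neocortex it was at 0.726, 0.843 and 0.675 CPM in the controls, against 0.977, 0.750 and 1.16 CPM in the KO libraries, with only D5132 within the controls (0.37 log2, SE 0.268, edgeR adjusted p = 0.521). Stat2 (ENSMUSG00000040033, chromosome 10, 128270576 to 128292849), a subunit of ISGF3, differed from the other 8: it was at 34.3, 34.9 and 37.0 CPM in the CA1 controls, against 33.8 and 32.2 CPM in the KO libraries. Both KO libraries were just below the controls (-0.10 log2, SE 0.0820, edgeR adjusted p = 0.593), with 807 to 1300 reads per library. In the neocortex Stat2 was at 32.8, 33.4 and 36.4 CPM in the controls, against 30.6, 34.2 and 32.1 CPM in the KO libraries (-0.08 log2, SE 0.0714, edgeR adjusted p = 0.601).

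**Figure D2:**
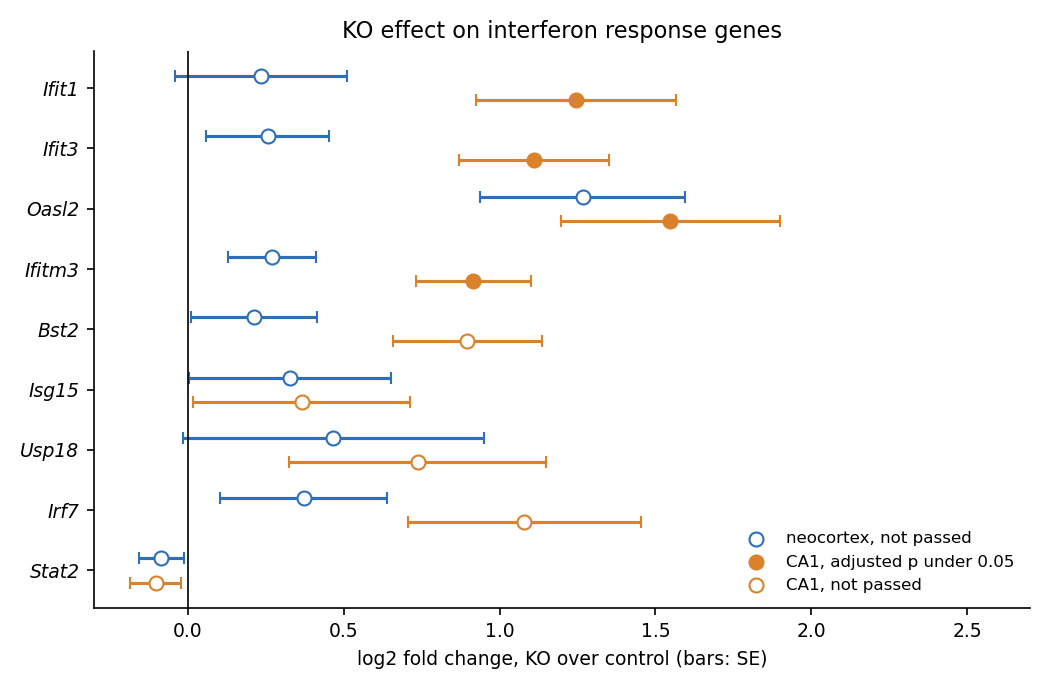
Log2 fold change of KO over control for each of the 9 genes in the neocortex (blue) and the CA1 (orange), with bars of 1 SE on either side. Filled points passed an adjusted p of 0.05; the 4 filled points are Ifit1, Ifit3, Oasl2 and Ifitm3 in the CA1, and Stat2 lies just below 0 in both tissues.

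Counted together, 4 of the 9 rose in the CA1 and 0 fell by edgeR; an unadjusted p under 0.05 was reached by 6 (17.3% of all genes tested), and 3 rose by DESeq2. Over all genes tested in the CA1, 2.47% rose and 1.41% fell by edgeR, and 2.72% rose by DESeq2. In 7 of the 9 both KO libraries were above every control, which 17.4% of all genes tested in the CA1 also showed. The median log2 fold change of the 9 was 0.92 in the CA1, beside a median near 0 (-0.00) over all genes tested. In the neocortex 0 of the 9 rose and 0 fell by edgeR; an unadjusted p under 0.05 was reached by 1 (18% of all genes tested), and 1 rose by DESeq2, in both cases Oasl2. Over all genes tested in the neocortex, 1.51% rose and 1.2% fell by edgeR, and 2.62% rose by DESeq2. Only 1 of the 9 had every KO library above every control, as did 11.6% of all genes tested there. The neocortex median of the 9 was 0.27 log2, with 8 of 9 positive, where 50.6% of all genes tested were positive.

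Whether the rise differed between the tissues was tested in 1 fit over the 11 libraries. The CA1 minus neocortex difference in log2 fold change was 1.01 for Ifit1 (SE 0.442, edgeR adjusted p = 0.470), 0.85 for Ifit3 (SE 0.322, edgeR adjusted p = 0.385), 0.65 for Ifitm3 (SE 0.238, edgeR adjusted p = 0.371) and 0.28 for Oasl2 (SE 0.485, edgeR adjusted p = 0.917). None of the 9 passed by edgeR, where 0.0571% of all genes did with a larger effect in the CA1, and none passed by DESeq2. By edgeR 4 of the 9 had an unadjusted p under 0.05, as did 9.51% of all genes. So the call in the CA1 and its absence in the neocortex do not show a difference between tissues. Kit, run and the animals used differ with tissue and cannot be told apart from it.

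Both KO animals had most of the genes high in the CA1, D5130 more often the higher, and the calls changed with the libraries used. Expressed as log2 over the control mean, the median of the 9 genes was 0.96 in KO D5130 and 0.92 in KO D5133 in the CA1. The animals were close for Ifit3 (1.14 and 1.10) and Oasl2 (1.59 and 1.56) and apart for Ifit1 (1.49 and 0.92) and Isg15 (0.71 and -0.17). KO D5130 held the highest CA1 value of 7 of the genes. In it 8 of the 9 were above every control (31% of all genes tested were), and in D5133 7 of the 9 (30.4% of all genes). In the neocortex the medians were 0.39 in D5130, -0.00 in D5132 and 0.47 in D5133. Above every control there were 7 of the 9 genes in D5130, 8 in D5133 and 2 in D5132 (Oasl2 and Ifitm3), where 25%, 28.9% and 28.5% of all genes tested were. The same 2 KO animals that were high in the CA1 were thus the higher ones in the neocortex, and D5132 was not sampled in the CA1.

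Leaving out 1 library at a time gave CA1 medians from 0.92 to 1.01 log2. The number of the 9 that rose was 2 without control D5134 (Ifit3 and Ifitm3), 3 without control D5135 (Ifit3, Ifitm3 and Oasl2), 2 without the female control D5138 (Ifit3 and Ifitm3), 1 without KO D5130 (Ifitm3) and 0 without KO D5133 (edgeR; 6 at an unadjusted p under 0.05). With D5133, the library in which Xist was seen, left out, Ifit1 measured 1.48 log2 (edgeR adjusted p = 0.0789), Ifit3 1.12 (adjusted p = 0.107), Ifitm3 0.81 (adjusted p = 0.128) and Oasl2 1.55 (adjusted p = 0.123). These sizes are near those with all libraries, and a lone KO library is then assumed to vary like the controls. Over all genes, 452 of 18274 rose in the CA1 with all libraries. Without control D5134 it was 441 of 18111, without D5135 363 of 17955 and without D5138 177 of 17916. Without either KO library fewer of all genes were called as well. Ifitm3 passed in 4 of the 5 fits that leave out a library, Ifit3 in 3, Oasl2 in 1 and Ifit1 in 0. Isg15 turned to -0.16 log2 without D5130. In the neocortex no fit that left out a library called any of the 9 (1 at an unadjusted p under 0.05 in each); the median was 0.18 without D5130, 0.49 without D5132 and 0.18 without D5133, and Ifit1 turned to -0.02 log2 without D5133.

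**Figure D3:**
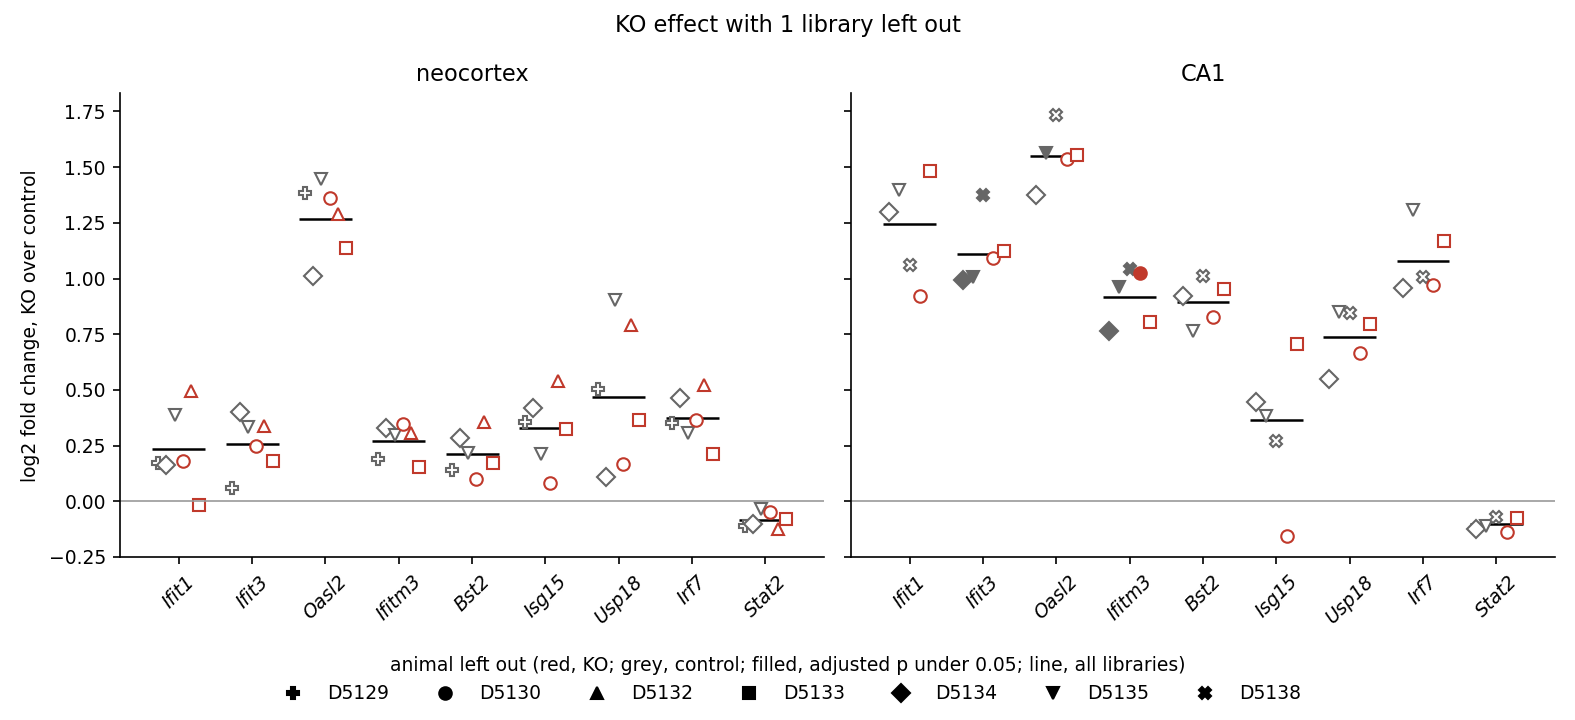
Log2 fold change of KO over control for each gene after leaving out 1 library, with the neocortex on the left and the CA1 on the right. Symbols name the animal left out (red, KO; grey, control), filled symbols passed an adjusted p of 0.05 and lines mark the value with all libraries; in the CA1 the sizes stay within a narrow band for Ifitm3 and Bst2, while no symbol is filled for D5133.

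The neocortex libraries also fell into 2 sets by the make-up of their ERCC spike-in RNAs, D5129, D5130 and D5132 in one and D5133, D5134 and D5135 in the other, each with both genotypes. The first set has 1 control (D5129) and the second 1 KO library (D5133), so a fit within a set rests on that lone library and assumes that it varies like the other group. They are given as a description: the median of the 9 genes was 0.30 and 0.40 log2. With the set as a term it was 0.36, and 0 of the 9 passed by edgeR (3 at an unadjusted p under 0.05). These fits were added after the data were seen.

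Upstream of the response genes, 14 of the 18 listed type I interferon genes had an entry in the table. In the neocortex they held 6 reads in all, 2 each for Ifnb1, Ifna2 and Ifnz, all in KO D5130. In the CA1 they held 4 reads, 2 each for Ifnb1 and Ifne, all in KO D5133. These counts are too few for a test or a fold, and a gene with no read over all libraries of a tissue could stand at up to 0.00980 CPM in the neocortex and 0.0195 in the CA1 (3 reads, counting error only).

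The receptor and its kinases did not pass in either tissue. Ifnar1 measured 0.05 log2 in the neocortex (edgeR adjusted p = 0.816) and 0.02 in the CA1 (edgeR adjusted p = 0.935), and Ifnar2 -0.02 and 0.11 (edgeR adjusted p = 0.952 and 0.686). Jak1 measured -0.06 and -0.09 (edgeR adjusted p = 0.592 and 0.511), and Tyk2 0.15 and 0.30 (edgeR adjusted p = 0.334 and 0.0938). Irf9, which acts with Stat2 in ISGF3, measured 0.13 and 0.38 (edgeR adjusted p = 0.605 and 0.112). In the CA1, Tyk2 and Irf9 had both KO libraries above every control, and Jak1 and the receptor genes overlapped.

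A wider list of 110 pathway genes that leaves out the 9 had 82 genes tested in the neocortex and 84 in the CA1. In the CA1 6 rose, 0 fell and 78 did not pass by edgeR (28 at an unadjusted p under 0.05), and 5 rose by DESeq2. Over all genes, 2.47% rose by edgeR, 2.72% by DESeq2 and 17.3% had an unadjusted p under 0.05. The median of the list was 0.29 log2. The rises were in the effectors Ifitm1 (1.53 log2, SE 0.311, edgeR adjusted p = 0.0146) and Ifitm2 (0.65, SE 0.169, edgeR adjusted p = 0.0476), which neighbour Ifitm3 and share its function, and Samd9l (0.93, SE 0.229, edgeR adjusted p = 0.0376), a restriction factor. The guanylate-binding protein Gbp2 (0.90, SE 0.221, edgeR adjusted p = 0.0368), the secreted glycoprotein Lgals3bp (1.01, SE 0.143, edgeR adjusted p = 0.00169) and Irf8, a transcription factor of microglia and other myeloid cells (1.02, SE 0.223, edgeR adjusted p = 0.0216), rose as well. Lgals3bp stood at 8.18 ± 1.39 CPM (SD, n = 3) in the controls and 16.4 ± 0.583 CPM (SD, n = 2) in the KO libraries. By role, 5 of 53 other interferon-stimulated genes and 1 of 4 other IRF genes rose, and 0 of the 2 receptor genes, 4 signalling genes, 5 negative regulators, 8 nucleic acid sensors and 8 sensor adaptors or kinases tested. The genes called changed with the fit. DESeq2 called Irf8, Ifitm1, Samd9l, Lgals3bp and Zc3hav1, without Ifitm2 and Gbp2. Leaving out KO D5130 gave Irf8, Lgals3bp and Zc3hav1, leaving out KO D5133 gave Ifitm1, Samd9l and Lgals3bp, and leaving out female control D5138 gave Lgals3bp. Of the 6 genes, Lgals3bp passed in each of the 5 fits that left out a library and Ifitm2 in none of them. In the neocortex 0 of the 82 rose and 0 fell by edgeR (7 at an unadjusted p under 0.05, where 18% of all genes were, and 1 rising by DESeq2), with a median of 0.10 log2. The closest was Traf3, an adaptor of the nucleic acid sensors, at 0.41 log2 (SE 0.101, edgeR adjusted p = 0.0506), which passed with DESeq2 there.

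**Figure D4:**
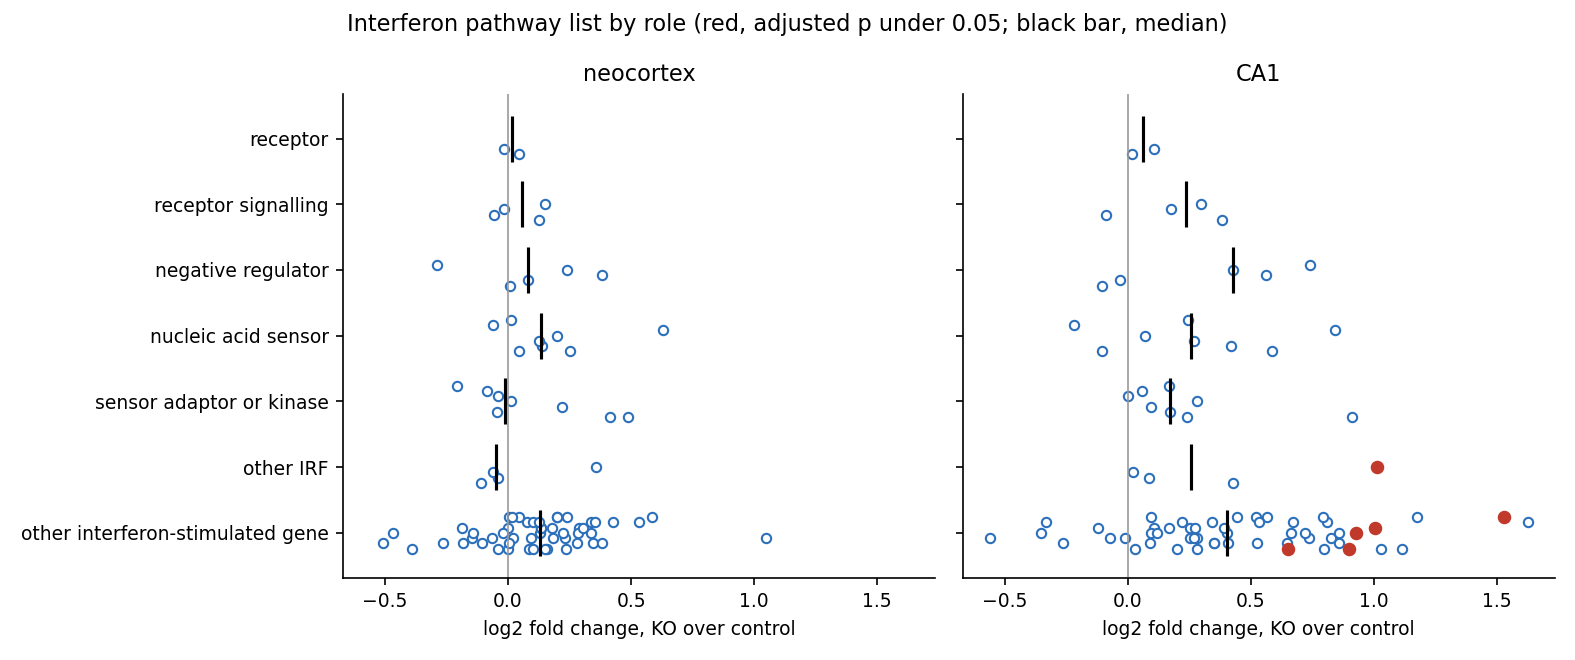
Log2 fold change of KO over control for the other interferon pathway genes, arranged by role, in the neocortex (left) and the CA1 (right). Each point is a gene, red where it passed an adjusted p of 0.05, and black bars are medians per role; the 6 red points are all in the CA1, 5 among the interferon-stimulated genes and 1 among the IRF genes.

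In the CA1, markers of some non-neuronal cells rose alongside the response genes, and those of oligodendrocytes fell. Summed over 10 meningeal fibroblast markers, the level was 111.5 to 122.3 CPM in the CA1 controls and 238.1 to 283.6 CPM in the KO libraries, and 5 of the 10 rose, Igf2 and Aebp1 among them. Over 8 activated microglia markers it was 102.4 to 123.8 CPM in the controls and 160.3 to 189.8 CPM in the KO libraries, with 6 of 8 higher, among them Itgax and Ccl6. Both lists were added after the data were seen. Over all genes tested in the CA1, 2.47% rose and 1.41% fell by edgeR. Over 10 homeostatic microglia markers the sum was 332.0 to 353.1 against 369.7 to 436.9 CPM (3 of 10 rose), and over 8 astrocyte markers 2428 to 2509 against 2955 to 3172 CPM (2 of 8 rose). For comparison, the response genes other than Stat2 summed to 9.42 to 12.1 CPM in the CA1 controls and 20.9 to 21.95 CPM in the KO libraries. Blood leukocyte markers were at 0.789 to 1.55 CPM against 2.25 to 2.27 CPM over 12 genes, of which 4 to 7 were at 0 in a control and 5 to 6 in a KO library. Only 3 of the 12 had enough reads to be tested, and 0 passed. Of the other lists in the CA1, 8 of 8 oligodendrocyte and 3 of 8 excitatory neuron markers fell, 1 of 8 endothelial markers rose, and 0 of 5 choroid plexus markers passed. The CA1 marker genes summed to 386.2 to 447.4 CPM in the CA1 controls and 254.2 to 266.4 CPM in the KO libraries, and 2 of 4 fell. The natural killer cell gene Ncr1 was at 0 in every library. Their part in the rise of the response genes was not tested.

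In the neocortex 1.51% of all genes tested rose and 1.2% fell by edgeR. Whether the marker lists moved differently between the tissues was not tested. Meningeal markers summed to 101.7 to 191.1 CPM in the controls and 131.7 to 177.6 CPM in the KO libraries, which overlapped (0 of 10 rose). Activated microglia markers summed to 90.1 to 96.0 against 113.6 to 131.8 CPM (7 of 8 rose), and homeostatic microglia markers to 452.1 to 493.1 against 452.2 to 489.7 CPM (0 of 10 rose). Blood leukocyte markers were at 1.90 to 2.99 CPM in the controls and 1.52 to 2.23 CPM in the KO libraries. Excitatory neuron markers summed to 5799 to 5934 CPM in the controls and 5085 to 5207 CPM in the KO libraries (2 of 8 fell). Astrocyte markers summed to 2353 to 2432 against 2471 to 2764 CPM (0 of 8 rose). Of the others, 0 of 8 oligodendrocyte and 0 of 8 endothelial markers passed. The response genes other than Stat2 summed to 11.6, 13.9 and 14.2 CPM in the controls D5129, D5134 and D5135 and to 16.6, 13.9 and 18.8 CPM in D5130, D5132 and D5133. In D5132 the sum of the response genes lay among the controls and the sum of the activated microglia markers above them.

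**Figure D5:**
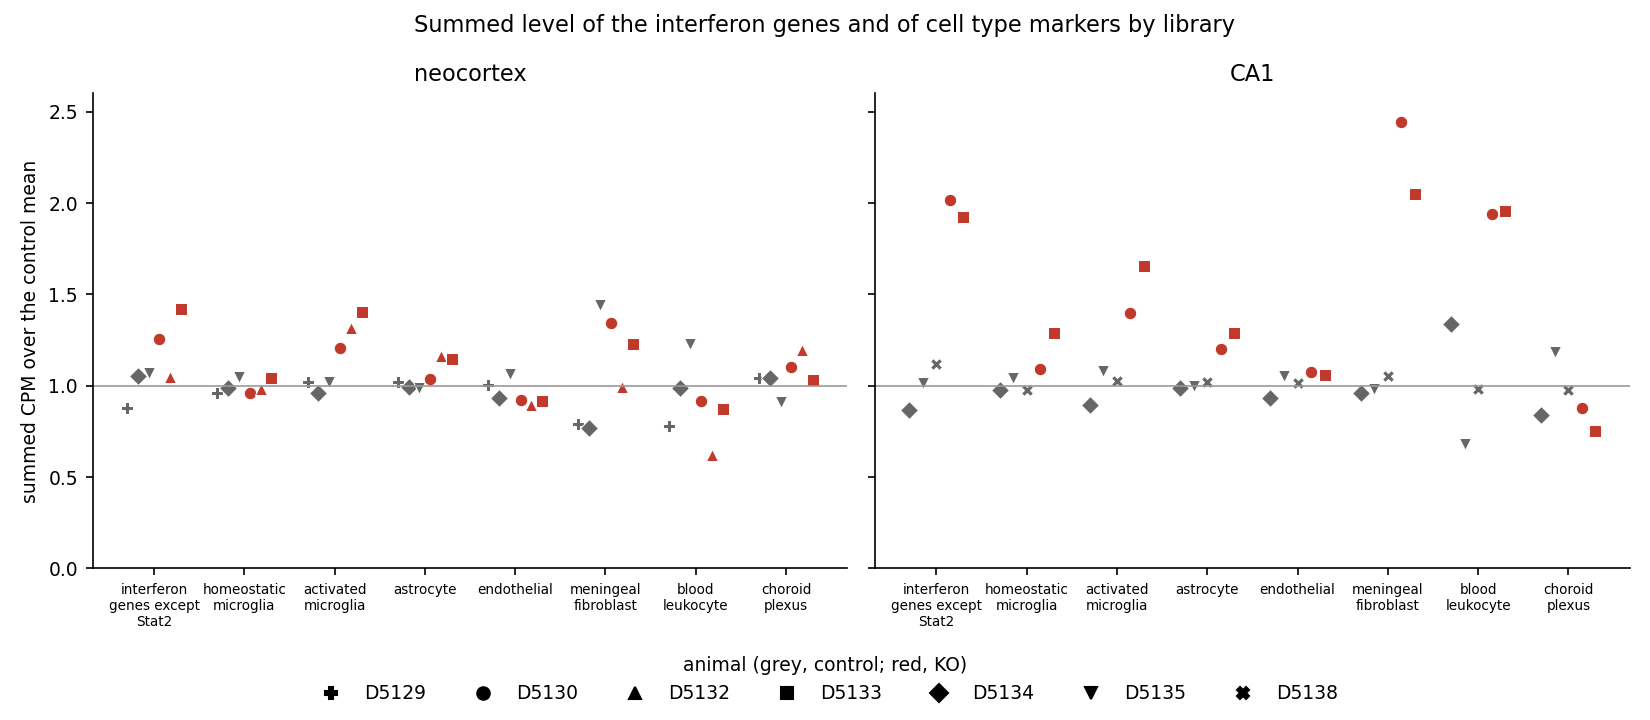
Summed CPM of the 8 response genes other than Stat2 and of cell type marker lists in each library, divided by the mean of the control libraries of the same tissue, on a linear axis from 0. Each symbol is an animal, grey for control and red for KO. In the CA1 both KO libraries stand near 2 times the control mean for the response genes and the leukocyte markers, and at or above that for the meningeal markers. The leukocyte sum is low, and 0 of the 3 leukocyte markers tested there passed. In the neocortex D5132 stays among the controls for the response genes.

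Across the 11 libraries, each gene's level less its tissue mean, the 9 genes varied together in part. Of their 36 pairs, 28 had a positive correlation, with a median Pearson r of 0.58. The genes whose pattern was most like the mean of the 9, among 12943 genes, were Igf2 (r = 0.952), Cdh23 (r = 0.948), Cdhr1 (r = 0.947), Aebp1 (r = 0.945), Map3k4 (r = 0.927), Crip1 (r = 0.926), Lsp1 (r = 0.925) and Deaf1 (r = 0.924), none of them in the pathway list. The points share depth, tissue kit and genotype, so these values describe 11 libraries only. Igf2 is a growth factor and Aebp1 a collagen-binding protein, both made by meningeal fibroblasts, and their CA1 log2 fold changes were 1.45 and 1.41. Both are also in the meningeal list above, which was added after the data were seen, so the likeness and that list are not separate observations.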

How the data were processed

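The deposited table holds raw counts per Ensembl gene, as whole numbers, which the authors left unnormalized. The submitters' processing notes list GSNAP, bedtools, SAMtools and FastQC and the build GRCm38. Their versions, the counting rule and its strand setting are not given in the sources used here. In every library more genes held exactly 2 reads than exactly 1 (1257 against 711 in neocortex D5129), so whether a count is a read or a fragment is not known, and low counts may rest on fewer molecules than they state.

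The table held 39109 entries, 92 of them ERCC RNAs, which were left out of the tests. Symbols and exon lengths came from GENCODE M21 by identifier, for 37607 of 39017 genes (96.4%). Within a tissue, KO was tested against control in R 4.3.3 by edgeR 4.0.16, using TMM scaling, filterByExpr and the robust quasi-likelihood F-test, two-sided, with Benjamini-Hochberg adjustment over all genes tested and a threshold of 0.05. SE is the absolute log2 fold change over the root of F. DESeq2 1.42.0, other scalings, no filter, spike-in terms and leaving out each library were the alternatives. The fit was tested on simulated data, with changes set only in genes of higher mean counts than Oasl2, Usp18, Isg15 and Irf7 had. In the CA1 simulation they were also set only above the mean count of Ifit1. The simulated spread beyond counting error was the same for all genes. Libraries of a group were not copies (chi-square per gene of 9.99 to 22.1). Promoter windows and motifs were read with Python 3.11.15.

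The labels name the same animal for both tissues of 4 animals, which pairs them. Deviations from the group mean correlated across 14113 genes with r of 0.188 to 0.243 within an animal and -0.289 to 0.0741 between animals, and the 2 CA1 KO deviations are opposite by construction.

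The 9 genes and the lists were chosen with earlier results of these data known. Named are the 9 genes, pathway genes past the threshold in either tissue, Ifnar1, Ifnar2, Jak1, Tyk2 and Irf9, and the 8 genes most alike by Pearson r of log2(CPM + 0.1) over 11 libraries, less the tissue mean, among those averaging 1 CPM or more. Traf3, Zc3hav1, Ifit2, Ifit3b, Ifit1bl1, the interferon genes with reads and the marker genes were named after their values were seen. A further result under this rule is not reported here, though the list totals contain it.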

Additional observations from a re-analysis of the deposited data

How the results depend on the processing

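Of the 4 genes called in the CA1, all kept their direction under every alternative run, with log2 fold changes of 0.92 to 1.48 for Ifit1, 0.99 to 1.37 for Ifit3, 0.77 to 1.04 for Ifitm3 and 1.38 to 1.74 for Oasl2. The number called was 3 with DESeq2 (Ifit1 lost, adjusted p = 0.0750), 5 without the filter on low counts (Bst2 added, adjusted p = 0.0166), 4 with RLE size factors and 0 to 3 when a library was left out. Pathway genes rising in the CA1 numbered 11 without the filter and 1 to 4 when a control library was left out. Over all genes in the CA1, 452 of 18274 rose in the main fit, 453 with RLE size factors, 497 with DESeq2 and 858 of 26149 without the filter. In the neocortex 1 of the 9 genes, Oasl2, rose with DESeq2 (adjusted p = 0.0434) and by edgeR without the filter (adjusted p = 0.0232). With a term for the share of ERCC reads Oasl2 measured 2.06 log2. Only controls, D5129 and D5135, had a high share, so the KO effect under that term rests on control D5134 alone. The pathway count there was 1 rising with DESeq2, 1 without the filter, and 0 to 1 when a library was left out (Traf3 without control D5135). Over all genes in the neocortex, 256 of 16971 rose in the main fit, 444 with DESeq2 and 396 of 24186 without the filter. The cause was not tested.

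Signs reversed only for differences that had not passed. In the neocortex Ifit1 ranged from -0.0181 to 0.494 log2 when a library was left out. There Ifit3 was -0.0024 with the ERCC share term, which rests on control D5134 alone, and Stat2 was 0.98 when scaled by ERCC reads. That scaling moved the median of all genes to 1.06 log2, so relative to it Stat2 stayed lower. Isg15 in the CA1 ranged from -0.16 to 0.71 when a library was left out. With animal as a replicate block, the difference between tissues still passed for 0 of the 9 genes (edgeR, 2 at an unadjusted p under 0.05), and it turned to 0.0839 for Stat2, -0.364 for Isg15 and -0.0740 for Usp18. When an animal was left out that difference ranged from -0.12 to 0.0012 for Stat2, -0.27 to 0.38 for Isg15 and -0.0774 to 0.471 for Usp18. The block was run only for this difference, where it changed no call. In the CA1, Usp18 rested on 9 to 30 reads per library and Irf7 on 12 to 44, with 2 KO libraries, which limits their precision.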

Other observations

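Among the Ifit genes of the pathway list, Ifit2 and Ifit1bl1 had negative log2 fold changes that did not pass, and Ifit3b positive ones that did not pass. Ifit1bl1 measured -0.15 log2 in the neocortex (SE 0.165, edgeR adjusted p = 0.713) and -0.35 in the CA1 (SE 0.205, edgeR adjusted p = 0.416), with groups that overlapped in both. In the neocortex Ifit2 was at 10.7, 11.1 and 12.4 CPM in D5129, D5134 and D5135 (control), against 10.6, 10.6 and 9.77 CPM in D5130, D5132 and D5133 (KO); the difference was -0.14 log2 (SE 0.0993, edgeR adjusted p = 0.507). In the CA1 it was at 7.23, 7.19 and 8.36 CPM in D5134, D5135 and D5138 (control), against 6.20 and 7.85 CPM in D5130 and D5133 (KO); the difference was -0.12 log2 (SE 0.156, edgeR adjusted p = 0.765). The KO libraries were all just below the controls in the neocortex and overlapped them in the CA1. The difference between these and the other Ifit genes was not tested, and they were singled out after their values were seen.

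The ISRE core also stood in the promoter window of 39 of the 90 other pathway genes with a window (43.3%), and TTCNNNGAA in 24 of them (26.7%), against 3.99% and 9.55% of all genes with a window.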
